A study of Mus musculus with 6 samples.

Results

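The 9 carriers described here serve nutrient uptake by the intestinal epithelium, most of them at the brush border, and their RNA was followed by single-nucleus RNA-seq in organoids, crypt-derived epithelial cultures, of the mouse jejunum. They were taken by name: Slc5a1, Slc2a2, Slc2a5, Slc15a1, Slc6a19, Slc6a20a, Slc13a2, Slc5a12 and Slc9a3, 9 of the 31319 genes in the count matrices. All 9 were counted, with 36641 unique molecular identifiers (UMIs, counted RNA molecules) in all and between 222 (Slc5a12) and 22882 (Slc5a1) each. The organoids came from C57BL/6 mice of 8 to 12 weeks. QCM was medium conditioned by quiescent, serum-deprived mouse embryonic fibroblasts and SCM was medium of the same kind of fibroblasts made senescent by X-rays or doxorubicin. Which of these agents was used for each sample is not given in the sources used here, and the cultures hold epithelium without the other cells of the gut wall. There were 3 samples per medium, and 38154 nuclei had been placed by the authors in clusters numbered 0 to 14. The question was in which clusters the carriers lay and whether their levels differed between QCM and SCM.

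As background, enterocytes take up nutrients across the apical membrane with the help of sodium gradients or protons. The sodium-glucose carrier Slc5a1 (SGLT1) brings in glucose and galactose, and Slc2a5 (GLUT5) brings in fructose. Slc2a2 (GLUT2) passes glucose, galactose and fructose, mainly across the basolateral side. Inside the cell ketohexokinase (Khk) and triokinase (Tkfc) help to carry fructose into glycolysis. Slc6a19 carries neutral amino acids, Slc6a20a carries proline, Slc15a1 (PEPT1) carries small peptides with protons, Slc13a2 and Slc5a12 carry dicarboxylates and lactate with sodium, and Slc9a3 (NHE3) exchanges sodium for protons. On GRCm38 the genes lie with Slc5a12 at chr2:110597298-110647779 (plus strand), Slc6a20a at chr9:123634770-123678885 (minus strand), Slc13a2 at chr11:78397087-78422217 (minus strand), Slc9a3 at chr13:74121457-74169442 (plus strand), Slc5a1 at chr5:33104219-33162870 (plus strand), Slc2a2 at chr3:28697903-28731359 (plus strand), Slc2a5 at chr4:150119283-150144169 (plus strand), Slc15a1 at chr14:121459621-121505252 (minus strand) and Slc6a19 at chr13:73679745-73704865 (minus strand).

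The sequence before the start site is shown for the 3 sugar carriers and for Slc9a3, since the carriers were highest in the same cluster. The windows are from RefSeq on GRCm38.p6, read 5′ to 3′ on the strand of the gene, and the printed runs are trimmed to end before the first base of the gene in either RefSeq or GENCODE. Capitals mark the letters CACGTG (the E-box form bound by ChREBP, the sugar-responsive factor encoded by Mlxipl) and CAAAGT (the core of an HNF4 site) on either strand.
Slc5a1: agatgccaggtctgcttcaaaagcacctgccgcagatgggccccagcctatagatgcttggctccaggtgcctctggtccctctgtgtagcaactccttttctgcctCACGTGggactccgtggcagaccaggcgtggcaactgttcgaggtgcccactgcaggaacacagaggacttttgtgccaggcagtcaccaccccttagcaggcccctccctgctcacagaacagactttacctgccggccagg
Slc9a3: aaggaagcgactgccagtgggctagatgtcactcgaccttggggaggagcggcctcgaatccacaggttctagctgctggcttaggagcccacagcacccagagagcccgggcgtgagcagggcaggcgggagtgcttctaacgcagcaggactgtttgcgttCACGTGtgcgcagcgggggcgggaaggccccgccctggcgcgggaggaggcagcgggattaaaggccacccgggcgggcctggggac
Slc2a2: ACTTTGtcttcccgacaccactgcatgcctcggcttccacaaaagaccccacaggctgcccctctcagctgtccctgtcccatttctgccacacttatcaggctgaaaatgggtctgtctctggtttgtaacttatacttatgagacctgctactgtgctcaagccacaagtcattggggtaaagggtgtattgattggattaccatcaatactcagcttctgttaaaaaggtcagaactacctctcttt
Slc2a5: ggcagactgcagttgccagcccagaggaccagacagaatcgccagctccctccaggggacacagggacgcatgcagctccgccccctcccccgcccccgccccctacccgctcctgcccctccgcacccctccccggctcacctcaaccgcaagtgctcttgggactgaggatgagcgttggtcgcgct
These runs lie at chr5:33103969-33104218 (Slc5a1, plus strand), chr13:74121163-74121412 (Slc9a3, plus strand), chr3:28697653-28697902 (Slc2a2, plus strand) and chr4:150119094-150119282 (Slc2a5, plus strand). Of the 9 carriers, 8 had a window in the table, all but Slc5a12. Motifs were counted in the 250 bases before the RefSeq start site, which lie inside the GENCODE gene for Slc6a19 and in part for Slc6a20a and Slc2a5. CACGTG occurred in 2 of these 8 (Slc5a1, 143 bases before the start site, and Slc9a3, 87 bases before it) and in 6.02% of all 32851 windows. CAAAGT occurred in 2 of 8 (Slc2a2 and Slc15a1) and in 12.6% of all windows. The other motifs searched on both strands were GTTAAT (1 of 8, Slc6a20a, in the part inside the GENCODE gene, against 6.43% of all windows), AGATAA (0 of 8, 9.99%), TTTATG (0 of 8, 10.8%) and TATAAA (1 of 8, Slc13a2, 12.4%). No printed run held more than 1 match, and that of Slc2a5 held none. The matches describe the letters alone.

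The libraries differed in ways that touch every comparison of the media. QCM replicate 1 had a median of 8260 UMIs per nucleus and the other 5 samples between 1578 and 3156.5, and SCM replicate 1 held 430 nuclei against 3791 to 10833 in the others. The libraries of QCM replicate 1 and SCM replicate 1 shared 175 cell barcodes, 40.7% of those of SCM replicate 1. Of these, 22.9% lay in the same cluster in both, and the 2 libraries drew on 192 and 168 different first 8 bases of the barcode against 2814 to 3619 in the others. Ribosomal protein genes took 4.92% to 14.1% of the UMIs in QCM and 2.61% to 7.25% in SCM. The summed level of 12 enterocyte markers ran from 1316 to 5168 CPM (UMIs scaled to a common library total of 1e+06) in QCM and from 836 to 1927 in SCM. None of these markers was at 0 in a sample. The summed level of 7 fetal markers ran from 47.7 to 97.9 CPM in QCM and from 162 to 597 in SCM, without overlap and with Spp1 at 0 in at least 1 sample. That of 10 enteroendocrine markers ran from 232 to 423 CPM in QCM and from 104 to 242 in SCM, with overlap. The part of these marker lists in the results was not tested. The main comparisons of the media are also given without both replicate 1 libraries.

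Cluster 8 had the highest levels of most of the carriers. It held 1416 nuclei (3.71% of all), 4.92% of all UMIs and 19.8% of the carriers' UMIs, between 15.4% and 21.8% in each of the 6 samples. Cluster 1, with 21.3% of the nuclei, held 20.8% of the carriers' UMIs. The share of cluster 8 was 16.8% after each nucleus had been thinned to 1000 UMIs. By carrier the unthinned share ran from 71.2% (Slc5a12) over 45.8% (Slc13a2), 40.5% (Slc6a20a), 38.6% (Slc9a3), 36.1% (Slc2a2), 29.1% (Slc15a1), 19.0% (Slc2a5) and 13.5% (Slc5a1) to 10.9% (Slc6a19). Without QCM replicate 1 it was 38.5% for Slc5a12, 59.0% for Slc13a2 and 28.7% for Slc2a5, and by sample that of Slc5a12 ran from 11.1% to 87.5%. Of 12 enterocyte markers, 9 (Alpi, Apoa1, Apoa4, Sis, Lct, Anpep, Mttp, Apob and Cyp3a11) were at least 2-fold higher there than in other nuclei at 5 CPM or more, so cluster 8 is called enterocyte-like. No marker of goblet, Paneth, enteroendocrine, tuft or stem cells passed that limit in cluster 8. Slc5a12, Slc6a20a, Slc13a2 and Slc9a3 were themselves among its 10 leading genes by fold. By the same marker limit, cluster 1 was mixed, with 6 of 12 enterocyte, 4 of 8 Paneth, 3 of 7 goblet and 1 of 7 stem markers. The clusters were drawn from highly variable genes of the same nuclei, and whether each carrier was among these is not known, so levels by cluster are a description without a test. Means by cluster, and highest or counted values in other clusters, are over samples holding 10 or more nuclei of the cluster.

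**Figure D1:**
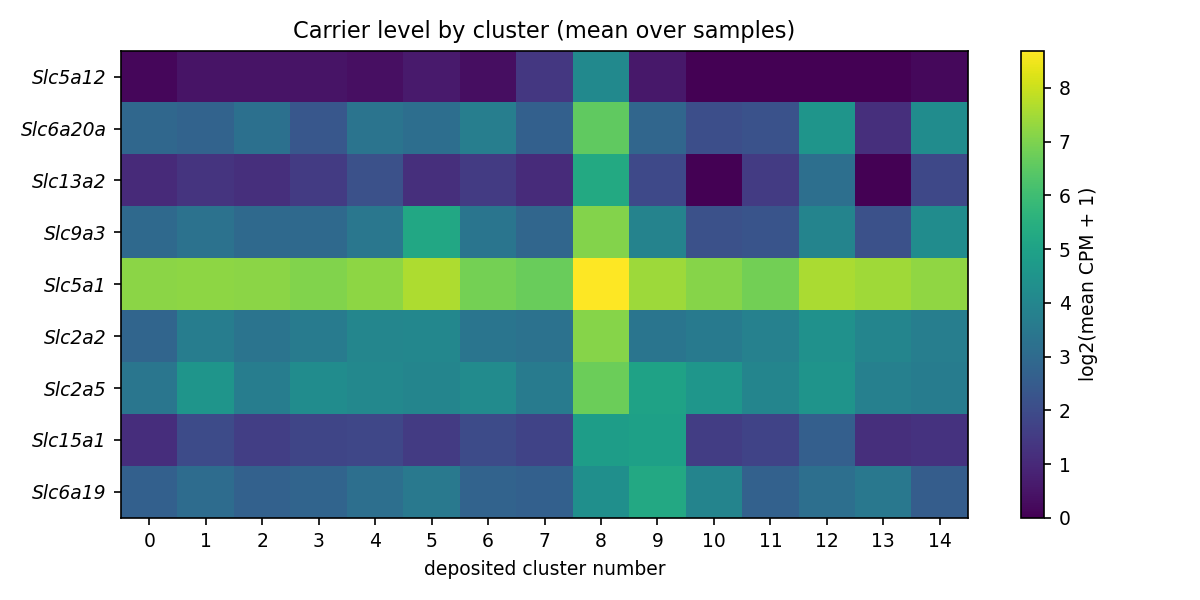
Mean level of the 9 carriers in each deposited cluster, as log2(mean CPM + 1), over those samples that held 10 or more of its nuclei. The column of cluster 8 is brightest for all but Slc15a1 and Slc6a19, which were highest in cluster 9, and the row of Slc5a1 is bright in every cluster.

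Among the sugar carriers, Slc2a2 marked cluster 8 most sharply. It was at 163, 113 and 156 CPM in QCM replicates 1, 2 and 3 and at 108, 152 and 129 CPM in SCM replicates 1, 2 and 3, a mean of 137 ± 23.6 (SD, n = 6). The highest value in any other cluster and sample was 33.3 CPM, in cluster 1 of QCM replicate 1, so that no value elsewhere reached the lowest of cluster 8. Slc5a1 reached 431, 426 and 573 CPM in cluster 8 of QCM and 116, 438 and 489 CPM in SCM, where the value of 116 comes from the 11 nuclei of SCM replicate 1. Outside cluster 8 the means of Slc5a1 ran from 104 ± 41.5 CPM in cluster 7 to 195 ± 59.4 in cluster 5 (SD, n = 6 each) among clusters 0 to 7. In each of the 6 samples it was higher in cluster 5 than in cluster 7, and 57 of 75 values in other clusters were at or above the lowest of cluster 8. The highest of these, 279 CPM, lay below cluster 8 in every sample but SCM replicate 1.

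Slc2a5 was at 184, 79.8 and 30.6 CPM in cluster 8 of QCM replicates 1, 2 and 3 and at 232, 55.2 and 48.5 CPM in SCM. The 2 replicate 1 samples stood above the other 4 in either medium. Outside cluster 8 it was at 66.4 CPM in QCM replicate 1 and between 4.71 and 8.86 CPM in the other 5 samples. Among samples holding 10 or more nuclei of a cluster, its highest single value there was 91.8 CPM, in cluster 1 of QCM replicate 1. Of its 3841 UMIs, 3046 came from that library. There it was also at 62.2 CPM in the 42 nuclei of cluster 11, which is tuft-like and should lack these carriers, against 66.4 outside cluster 8. In the same nuclei Slc2a2 was at 31.1 CPM (13 UMIs) against 27.1, Slc6a19 at 23.9 (10 UMIs) against 24.9 and Slc9a3 at 12.0 (5 UMIs) against 12.3. The levels of these 4 outside cluster 8 in QCM replicate 1, where like or below those of cluster 11, cannot be told apart from free RNA.

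The amino acid and peptide carriers divided by cluster. Slc6a20a was at 152, 92.8 and 101 CPM in cluster 8 of QCM and at 66.3, 73.0 and 82.0 CPM in SCM, and its highest value elsewhere was 31.5 CPM, in cluster 12. Slc15a1 had a mean of 27.8 ± 14.8 CPM in cluster 8 (n = 6) and 29.98 ± 10.03 CPM in cluster 9 (n = 5), which did not differ beyond their spread. In cluster 9 it was at 22.2, 47.1 and 24.3 CPM in QCM and at 30.3 and 25.9 CPM in SCM replicates 2 and 3. Slc6a19 was highest in cluster 9, at 39.2, 45.6 and 37.1 CPM in QCM and 25.6 and 37.7 CPM in SCM replicates 2 and 3, a mean of 37.0 ± 7.22 (SD, n = 5). In cluster 8 the same gene ran from 3.24 to 44.3 CPM, a mean of 19.3 ± 18.5 (n = 6), with only the replicate 1 samples above 11.1. SCM replicate 1 had 3 nuclei in cluster 9 and was left out. Cluster 9 is enteroendocrine-like, with 10 of 10 such markers at least 2-fold higher than in other nuclei and 0 of 12 enterocyte markers. Slc6a19 was seen in 4.85% of its thinned nuclei (33 of 681).

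Slc13a2 was at 38.1, 37.6 and 27.8 CPM in cluster 8 of QCM and at 58.0, 42.2 and 24.6 CPM in SCM, against at most 18.5 CPM in any other cluster and sample. Slc9a3 was at 108, 140 and 160 CPM in QCM and at 99.4, 110 and 196 CPM in SCM. For both, all 6 samples of cluster 8 lay above every value elsewhere. Slc9a3 had a further site in cluster 5, at a mean of 35.7 ± 22.6 CPM (n = 6), against 3.45 to 17.9 in the clusters other than 5 and 8. Slc5a12 was the least steady, at 52.4, 8.22 and 0.926 CPM in cluster 8 of QCM and 33.1, 3.24 and 0.746 CPM in SCM. Of its 222 UMIs, 183 were in QCM replicate 1, and in cluster 8 the remaining samples had 1 to 7 UMIs of it each.

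After thinning to 1000 UMIs, at least 1 of the 9 carriers was seen in 57.9% of nuclei of cluster 8 (Wilson 95% interval 55.3% to 60.5%, counting error only), with Slc5a1 in 33.0%, Slc9a3 in 16.5%, Slc2a2 in 12.1% and Slc6a20a in 9.88%. Over the clusters other than 8, the share with any carrier ran from 14.4% (cluster 11) to 30.4% (cluster 14, 92 nuclei), with 27.3% in cluster 5. In cluster 11, tuft-like by 5 of 8 tuft markers, the share was 14.4% (11.02% to 18.6%), with Slc5a1 in 11.04%, Slc9a3 in 1.23%, Slc2a2 in 0.613%, Slc2a5 in 1.53% (5.12% in cluster 8) and Slc6a20a in 0 of 326 nuclei, which allows up to 0.920% of nuclei with a UMI at 1000 UMIs each. Unthinned, 5 of the 366 nuclei of cluster 11 (1.37%) had a UMI of Slc6a20a. The level of Slc5a1 in cluster 11 was 113 CPM, so the like levels of other clusters cannot be told apart from free RNA. Unthinned, the shares with any carrier were 81.4% and 33.6%, at median depths of 2366.5 and 2080.5 UMIs. At least 3 of the 9 carriers were seen in 4.10% of thinned nuclei of cluster 8 and in 0% to 0.294% in the other clusters. Thinning left out 2366 of 21865 QCM and 813 of 16289 SCM nuclei.

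Over the 15 clusters, the levels of the carriers ran together to unlike degrees. The highest correlation of log2(CPM + 1) was between Slc6a20a and Slc13a2 (Pearson r = 0.91, n = 15 clusters, which share libraries and depth) and the lowest was between Slc6a20a and Slc6a19 (r = 0.17). The genes most like the mean of the 9 carriers among 14797 were Creb3l3 (r = 0.93), Cyp2c53-ps (r = 0.93), Gm35570 (r = 0.93), Siae (r = 0.92) and Adh6a (r = 0.91). Slc5a1 was most like Sis, the brush border sucrase-isomaltase (r = 0.98). Likewise named by this measure were, for Slc2a2, Cyp4f16 (r = 0.95) and Cyp2b10 (r = 0.95). Slc9a3 was most like Cyp3a25 (r = 0.95), Slc13a2 like Gm8909 (r = 0.95), Slc5a12 like glycerol kinase Gk (r = 0.94) and Slc6a20a like Scamp1 (r = 0.91). The values were lower for Slc15a1 with Acot12 (r = 0.90), Slc2a5 with Adh6a (r = 0.89) and Slc6a19 with Baiap3 (r = 0.88).

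Summed over all nuclei, the 9 carriers together were at 370, 211 and 296 CPM in QCM and at 138, 174 and 232 CPM in SCM. The groups overlapped, and the log2 ratio of the means was -0.69. Without both replicate 1 samples it was -0.32, and with clusters 0 to 8 given equal weight it was -0.52. Slc5a1 alone gave 22882 of the 36641 UMIs. Without Slc5a1 the sums were 200, 49.9 and 80.6 CPM in QCM replicates 1, 2 and 3 and 55.3, 42.2 and 61.6 CPM in SCM, so that QCM replicate 1 stood apart. In sums over nuclei, fewer nuclei of a type and less RNA per nucleus cannot be told apart. Cluster 8 made up 3.19% to 4.93% of the nuclei in QCM and 1.53% to 4.55% in SCM.

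**Figure D2:**
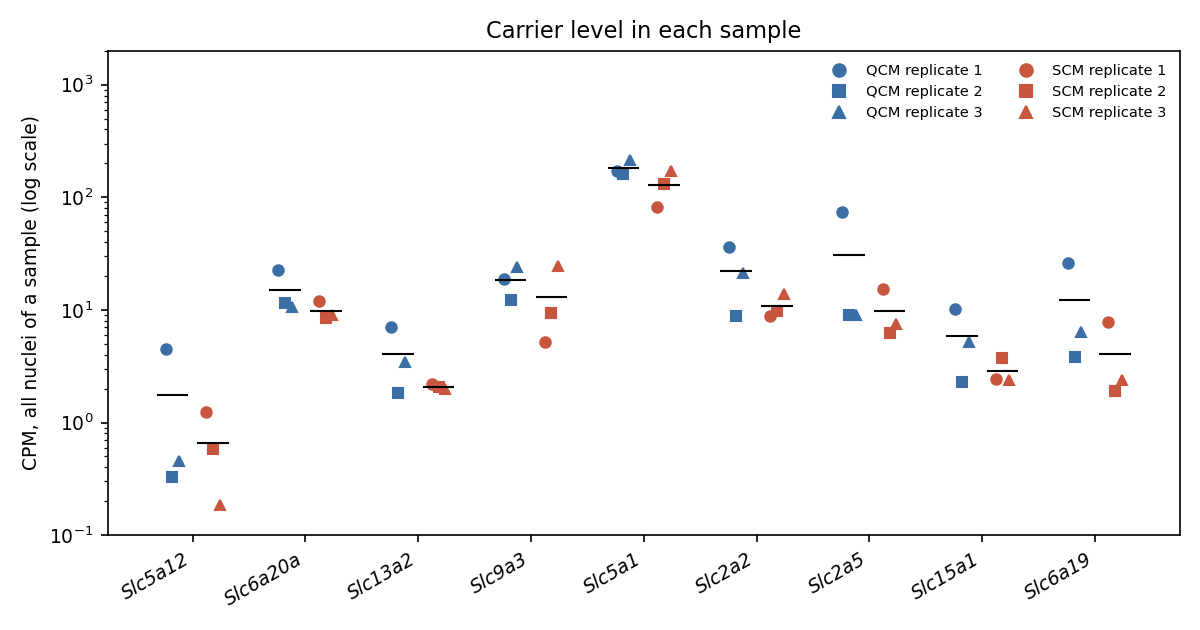
Level of each carrier in each sample over all nuclei, in CPM on a log axis, with a short line at the mean of each medium (n = 3). For Slc5a12, Slc2a5 and Slc6a19 the QCM mean is set by replicate 1, and for all 9 carriers the samples of the media overlap.

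Gene by gene, Slc2a5 was at 74.2, 9.06 and 9.08 CPM in QCM replicates 1, 2 and 3 and at 15.5, 6.20 and 7.54 CPM in SCM. Slc6a19 was at 26.2, 3.83 and 6.37 CPM in QCM and at 7.86, 1.92 and 2.39 CPM in SCM. Slc2a2 was at 36.1, 8.85 and 21.5 CPM in QCM and at 8.84, 9.86 and 13.8 CPM in SCM. In each, QCM replicate 1 stood highest and the media overlapped.

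Slc5a1 was at 171, 161 and 216 CPM in QCM and at 82.5, 132 and 171 CPM in SCM. Slc9a3 was at 18.6, 12.2 and 23.9 CPM in QCM and at 5.16, 9.43 and 24.3 CPM in SCM. These 2 genes were not raised in QCM replicate 1 above the other QCM samples. Slc6a20a ran from 10.7 to 22.8 CPM in QCM and from 8.42 to 12.0 in SCM, Slc15a1 from 2.31 to 10.1 and from 2.39 to 3.70, Slc13a2 from 1.81 to 7.07 and from 1.98 to 2.21, and Slc5a12 from 0.329 to 4.46 and from 0.187 to 1.23. For none of the 9 did all SCM samples lie below all QCM samples, which held for 2.09% of the 19046 genes tested.

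The edgeR quasi-likelihood test called none of the 9 carriers between the media at a Benjamini-Hochberg adjusted p under 0.05, as it called 0% of the 19046 genes. All 9 estimates were lower in SCM, with a median log2 ratio of -1.25 against -0.01 over all genes tested. None passed an unadjusted p of 0.05, which 866 genes did in either direction and 3.08% of all genes did in that direction. The estimates were -2.04 ± 0.93 (SE) for Slc2a5, -2.03 ± 0.89 for Slc6a19, -2.03 ± 1.21 for Slc5a12, -1.25 ± 0.54 for Slc2a2, -1.27 ± 0.59 for Slc15a1, -1.23 ± 0.58 for Slc13a2, -0.86 ± 0.40 for Slc6a20a, -0.66 ± 0.30 for Slc5a1 and -0.61 ± 0.55 for Slc9a3, with adjusted p from 0.927 to 0.929. DESeq2 called 0.110% of the genes and none of the carriers, with the p of Slc2a5 missing, and voom with limma called 0 genes.

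Several of these estimates moved with QCM replicate 1 or with the ribosomal protein share. Without QCM replicate 1 the log2 ratio was 0.0034 for Slc2a5 and 0.47 for Slc5a12, and the other 7 ran from -0.58 (Slc5a1) to -0.24 (Slc6a20a). With replicates 2 and 3 alone the 9 estimates ran from -1.28 (Slc6a19) to -0.11 (Slc5a12). With the ribosomal protein share of the sample as a covariate, 7 of the 9 became positive, from 0.028 (Slc6a19) to 0.91 (Slc5a12), while Slc5a1 (-0.31) and Slc6a20a (-0.14) stayed negative. Without the nuclei of shared barcodes they ran from -2.05 to -0.51.

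Within cluster 8, Slc6a20a was the carrier whose media did not overlap. Its values of 66.3 to 82.0 CPM in SCM lay below the 92.8 to 152 CPM of QCM, as held for 4.10% of the 10011 genes tested there, with a log2 ratio of -0.63 ± 0.28 (SE) and an adjusted p of 1.00 in edgeR. No gene of the 10011 was called in cluster 8 by edgeR, DESeq2 or limma, and 316 passed an unadjusted p of 0.05 in edgeR. With replicates 2 and 3 alone it was -0.27. Slc6a19 was at -1.66 ± 0.85. The other 6 carriers tested lay between -0.39 ± 0.43 (Slc5a1) and 0.07 ± 0.29 (Slc9a3), and Slc5a12 had too few counts for the test. For Slc2a2 the estimate was -0.13 ± 0.27 and for Slc2a5 -0.24 ± 0.67.

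**Figure D3:**
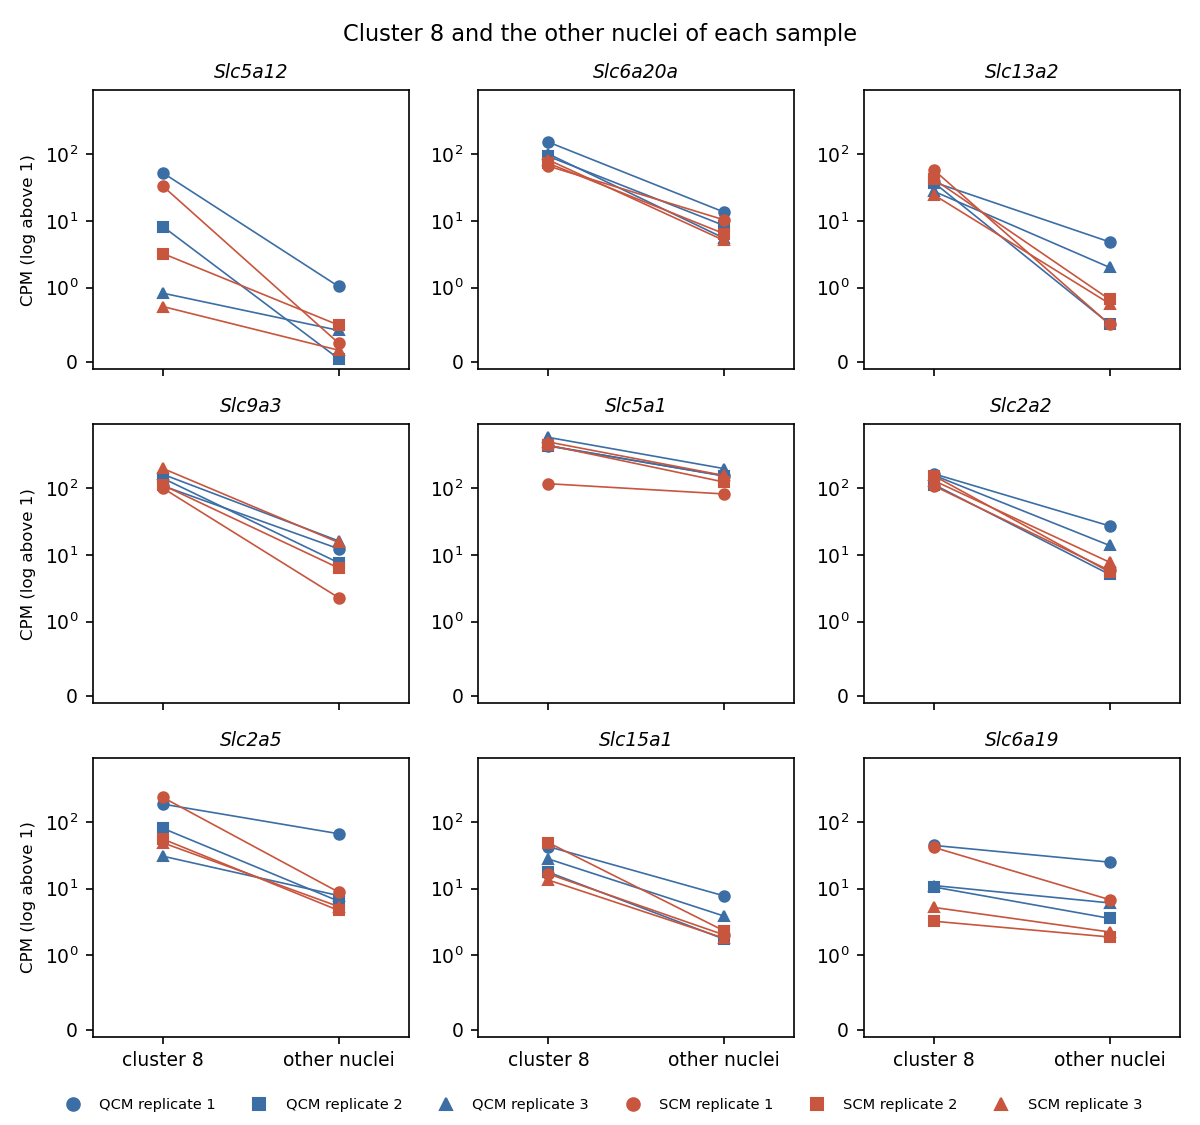
Level of each carrier in cluster 8 and in all remaining nuclei, sample by sample, in CPM on an axis that is linear below 1 and logarithmic above, with a line joining the values of a sample. All lines fall from cluster 8 to the other nuclei, and QCM replicate 1 stands highest in the other nuclei for all carriers but Slc5a1 and Slc9a3.

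Over the 13 clusters that could be fitted (0 to 12), the carriers gave 47 tests of 117 possible, since low counts removed the rest. None was called by edgeR, DESeq2 or limma, against 0% of the gene and cluster pairs tested in edgeR. The ratio was lower in SCM in 45 of the 47, and 13 passed an unadjusted p of 0.05 in that direction, beside 4.55% of all 130109 pairs. With replicates 2 and 3 alone 45 were tested, 37 were lower and 2 passed, both lower. The clusters share their samples, so these are not independent. The filter on low counts could keep a pair through its level in QCM alone or in SCM alone. In cluster 7, Slc2a2 ran from 10.5 to 19.4 CPM in QCM and from 0 to 6.46 CPM in SCM. The counts of 45 and 13 therefore hold only for the pairs kept, and depend in part on the filter. The 13 were Slc2a5 in clusters 0, 1, 2 and 6 (-2.78 to -1.97), Slc6a19 in clusters 0 and 1 (-3.28 to -2.89), Slc5a1 in clusters 1, 3, 4 and 7 (-0.91 to -0.67), Slc2a2 in clusters 3 and 7 (-1.90 to -1.48) and Slc6a20a in cluster 8. The limit from cluster 11 given above holds for part of them. In QCM replicate 1, Slc2a5 in clusters 0, 2 and 6 (40.6, 46.6 and 59.5 CPM) was not above the 62.2 CPM of cluster 11. Nor were Slc6a19 in cluster 0 (23.3 against 23.9) and Slc2a2 in clusters 3 and 7 (27.5 and 19.4 against 31.1). In cluster 1 Slc2a5 (91.8) and Slc6a19 (28.9) had higher values than in cluster 11. The values of cluster 11 rest on 26 and 10 UMIs, and these differences were not tested. For Slc5a1 the limit holds where its level was like the 113 CPM of cluster 11, as in cluster 7 (mean 104). Without the filter on low counts 19 of the carriers' tests, at most 117, were called. All 19 were lower in SCM, beside 0.892% of all pairs in that direction, and 10 of the 19 were Slc2a5. Among the 19 was Slc5a12 in cluster 8, with 143, 7 and 1 UMIs in QCM and 4, 2 and 1 in SCM. That call rests on low counts and on QCM replicate 1.

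Outside cluster 8 the ratio between the means of the media was further from 1 than inside it for several carriers. Slc2a5 was at 98.2 ± 78.5 CPM in QCM and 112 ± 104 in SCM within cluster 8, and at 26.9 ± 34.2 and 6.32 ± 2.23 in the other nuclei (SD, n = 3). Slc13a2 was at 34.5 ± 5.81 and 41.6 ± 16.7 within cluster 8, and at 2.46 ± 2.21 CPM in QCM and 0.506 to 0.843 CPM (mean 0.711) in SCM in the others. Slc2a2 was at 144 ± 27.2 and 130 ± 22.4 within cluster 8, and at 15.3 ± 11.1 and 6.35 ± 1.21 in the others. In the other nuclei the spread within QCM was as large as the difference for each of these genes. For Slc2a5 these means rest on the replicate 1 libraries. Without QCM replicate 1 its QCM mean was 55.2 CPM within cluster 8 and 7.17 in the others, so that the ratio was then further from 1 inside cluster 8. Without SCM replicate 1 its SCM mean within cluster 8 was 51.8 CPM. The QCM means of Slc13a2 and Slc2a2 in the other nuclei were 1.26 and 9.44 CPM without QCM replicate 1. In QCM replicate 1 the levels of Slc2a5, Slc2a2, Slc6a19 and Slc9a3 outside cluster 8 were like those of cluster 11. The limit given above holds for them here and in the next comparison. For Slc13a2 and Slc15a1, cluster 11 of that library held 1 and 2 UMIs, too few to set such a limit. Whether free RNA adds to their levels outside cluster 8 was not tested.

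This difference was tested in 1 model with the sample as a block. The SCM to QCM ratio, as log2, was higher in cluster 8 than in the other nuclei by 1.55 ± 0.41 (SE) for Slc2a5, 1.62 ± 0.61 for Slc13a2, 1.08 ± 0.34 for Slc2a2 and 0.99 ± 0.45 for Slc15a1. These 4 of 9 passed an unadjusted p of 0.05 in that direction, as did 2.91% of the 14401 genes. None was called, against 0% of all genes (820 at an unadjusted p under 0.05), and the smallest adjusted p among the carriers in edgeR was 0.376, for Slc2a5. The difference was 0.56 ± 0.28 for Slc9a3, 0.64 ± 0.52 for Slc6a19, 0.14 ± 0.22 for Slc5a1, 0.05 ± 0.27 for Slc6a20a and -1.41 ± 1.09 for Slc5a12.

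**Figure D4:**
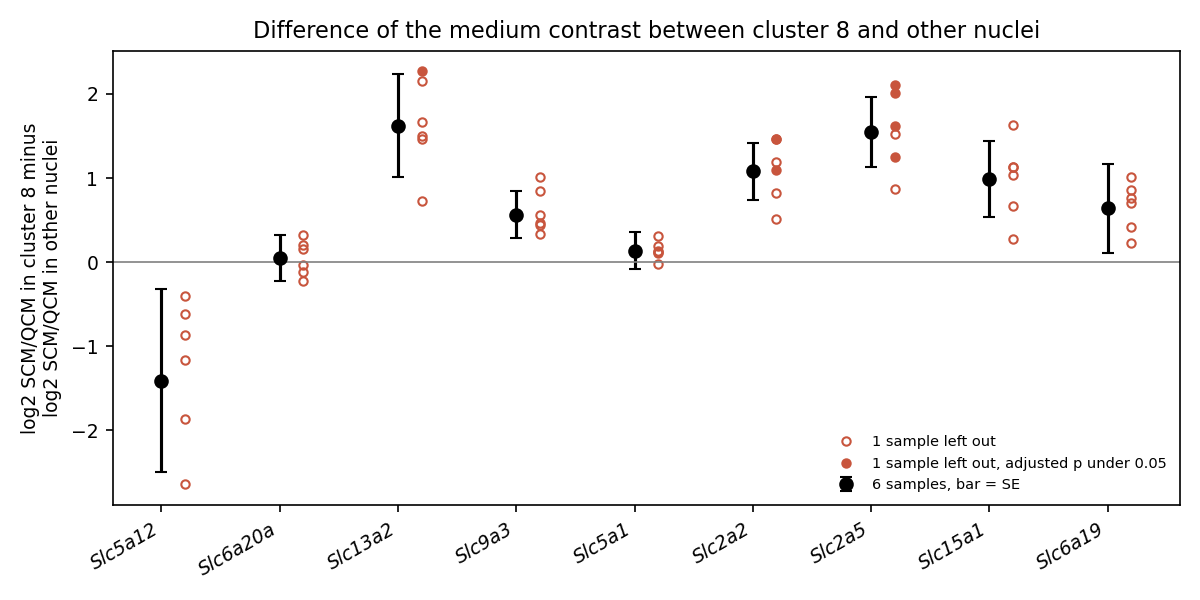
Difference between cluster 8 and the other nuclei in the log2 ratio of SCM to QCM, with the SE as a bar (6 samples) and the estimate with each sample left out beside it, filled where the adjusted p was under 0.05. Slc2a5 stays above 0 in all 6 and is filled in 4 of them.

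The outcome of this test turned on the samples in it. Without QCM replicate 2, Slc2a5, Slc2a2 and Slc13a2 were called, beside 0.227% of all genes in that direction. Without SCM replicate 1, Slc2a5 and Slc2a2 were called, beside 0.565%. Slc2a5 alone was called without SCM replicate 2 (beside 0.0405%) and without SCM replicate 3 (beside 0.631%). No carrier was called without QCM replicate 1, without QCM replicate 3 or with replicates 2 and 3 alone, where the difference for Slc2a5 was 0.55. Without QCM replicate 1 the difference was 0.87 for Slc2a5, 0.73 for Slc13a2 and 0.52 for Slc2a2.

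The enzymes of fructose use had estimates below 0, as the carriers did, and none was called. Over all nuclei, 10 of the 11 genes tested of the fructose and hexose list were lower in SCM, with a median log2 ratio of -0.57 against -0.01 over all genes, and 0 were called. Khk was at 162, 63.4 and 91.5 CPM in QCM and at 20.1, 33.0 and 72.1 CPM in SCM, a log2 ratio of -1.52 ± 0.57 (SE). Tkfc was at 184, 92.2 and 158 CPM in QCM and at 71.7, 71.4 and 103 CPM in SCM, a ratio of -1.01 ± 0.35. For both enzymes the groups overlapped, and both were under an unadjusted p of 0.05. With replicates 2 and 3 alone the ratio was -0.59 for Khk and -0.56 for Tkfc, and the median of the list was -0.27. Mlxipl, which encodes ChREBP, was at 221, 367 and 417 CPM in QCM and at 256, 330 and 341 CPM in SCM, a ratio of -0.25 ± 0.24.

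Khk was 1.66-fold and Tkfc 2.20-fold higher in cluster 8 than in the other nuclei by mean CPM over the 6 samples. These folds compare with 12.6-fold for Slc2a2 and 6.32-fold for Slc2a5. In cluster 8 their log2 ratios were -0.22 ± 0.32 (Khk) and -0.18 ± 0.26 (Tkfc). The ratio was higher in cluster 8 than outside it by 1.15 ± 0.26 for Khk and 0.69 ± 0.22 for Tkfc, with adjusted p of 0.307 and 0.583 in edgeR. Khk was called without QCM replicate 2, without SCM replicate 1 or without SCM replicate 3, and Tkfc without SCM replicate 3. G6pc, of the fructose and hexose list, was called without QCM replicate 2, without SCM replicate 1 or without SCM replicate 2. None of these was called without QCM replicate 1 or without QCM replicate 3. Khk was also called with replicates 2 and 3 alone, where 0.191% of all genes were called in that direction. Its difference there was 0.92 ± 0.23 (SE), at an adjusted p of 0.0426 in edgeR. The iron carrier Slc11a2 was called there too (0.84 ± 0.20), and without QCM replicate 2 or without SCM replicate 1.

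Among partners and scaffolds, Cltrn had 17 UMIs in all. The NHE3 scaffold Slc9a3r1 was at -0.44 ± 0.35 on the log2 scale over all nuclei. In the interaction with cluster 8 it was at 0.67 ± 0.33 (SE) and was not called in the main fit. It was called only without SCM replicate 3, beside 0.631% of all genes in that direction.

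Of the other apical carriers, 24 of 26 were tested, with 14 lower and 10 higher in SCM, a median log2 ratio of -0.27 and 0 called. In the interaction with cluster 8 the nucleoside carrier Slc28a2 lay in the opposite direction, at -3.52 ± 0.84 (SE) with 45 UMIs in cluster 8. It was called lower there without SCM replicate 1 (beside 0.138% of all genes in that direction) and without SCM replicate 2 (beside 0.0135%). The cystine carrier pair Slc7a9 and Slc3a1 was 4.69-fold and 2.03-fold higher in cluster 8 than outside it, with ratios between the media over all nuclei of -0.89 ± 0.45 and -0.37 ± 0.19. Of 12 basolateral and ion carriers, 8 were lower and 4 higher (median -0.15, 0 called), and the amino acid exchanger Slc7a7 was at 0.09 ± 0.17. Of 5 partners tested of 7, 3 were lower and 2 higher (median -0.13, 0 called).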

How the data were processed

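The deposited count matrices hold UMI counts per gene and nucleus, made by the authors with Cell Ranger on mm10 (version 2.1.1 per the submitters' processing notes). Whether counting used strand is not given in the sources used here, and Slc6a20a, Slc13a2, Slc5a1, Slc2a2 and Slc6a19 overlap other genes. Clusters are the authors' numbers from the deposited table of nuclei. Symbols came from GENCODE M21 on GRCm38 and matched 31258 of 31319 genes.

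All 38154 nuclei were used without a doublet filter. Sample totals ran from 4071926 to 41035733 UMIs. Within a sample, counts were added up over all nuclei and over each cluster with at least 10 nuclei and given as CPM, and clusters with at least 2 samples per medium were fitted. SCM was compared with QCM by edgeR 4.0.16 (quasi-likelihood, TMM, filterByExpr with a minimum count of 10, Benjamini-Hochberg over all genes, threshold 0.05). DESeq2 1.42.0, limma 3.58.1, other scalings, filters and left-out samples were alternatives. The tests were run on simulated counts with large known changes in well-counted genes and no deviating library. That run does not show their power or error in these samples. Likeness used log2(CPM + 1) and genes of at least 5 CPM in a cluster. Named genes were the 9 carriers, a fixed set from the pathway lists, genes called, and the genes most alike, of which 2 are not reported here. Members, lists and tests were chosen with earlier results of these data known. The study gives individual values as mice unless stated otherwise, and the labels of these samples name no animal, so p-values measure the spread between samples. The analysis ran in R 4.3.3 and Python 3.11.15.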

Additional observations from a re-analysis of the deposited data

How the results depend on the processing

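The number of carriers called over all nuclei (0) and of pathway genes called (0) did not move under DESeq2, voom and limma, library size alone, no filter on low counts, a left-out sample, the replicate block, or the settings chosen after seeing the data (replicates 2 and 3 alone, no nuclei of shared barcodes, the ribosomal protein share). Within clusters 19 carrier tests were called without the filter on low counts and 0 otherwise. The number of carriers called in the interaction with cluster 8 ran from 0 to 3 with 1 sample left out, and the summed level from -0.91 to -0.48. The carriers highest in cluster 8 numbered 7 to 8 of 9.

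The sign turned in 31 further values, and the cause was not tested. In cluster 8 this count leaves out limma, no filter on low counts and a minimum of 20 nuclei per sample. There Slc13a2, at 0.060 in the main fit, was at -0.021 with limma and -0.087 with at least 20 nuclei. With the share of ribosomal protein UMIs added to the fit, the log2 ratio over all nuclei was 0.91 for Slc5a12, 0.12 for Slc13a2, 0.18 for Slc9a3, 0.22 for Slc2a2, 0.28 for Slc2a5, 0.11 for Slc15a1 and 0.028 for Slc6a19. With 1 sample left out it ran from -2.56 to 0.47 for Slc5a12 and from -2.53 to 0.0034 for Slc2a5. In cluster 8 such ranges were -0.15 to 0.43 for Slc13a2, -0.35 to 0.21 for Slc9a3, -0.31 to 0.017 for Slc2a2, -0.97 to 0.67 for Slc2a5 and -1.16 to 0.35 for Slc15a1. With replicates 2 and 3 alone it was 0.10 for Slc2a2 and 0.33 for Slc15a1, and with DESeq2 0.0092 for Slc2a5. In the interaction the ranges were -0.22 to 0.32 for Slc6a20a and -0.025 to 0.32 for Slc5a1. Slc6a20a was at -0.037 with library size alone, and Slc6a19 at -0.0016 with replicates 2 and 3 alone. Library size alone moved the median of all genes from -0.01 to 0.14.

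The replicate block changed no call of a carrier. In cluster 8 the block gave -0.027 for Slc9a3 and 0.15 for Slc2a5. The deviations of same-numbered samples correlated at 0.30, 0.51 and -0.07 over 19046 genes for numbers 1, 2 and 3, so a pairing was not shown for every number, and no source used here says what a number marks. With SCM replicate 1 at 11 nuclei in cluster 8, levels there are least precise.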
